A study of Rattus norvegicus with 14 samples.

Results

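Tissue at the margin of a repaired defect of the rat oesophagus was compared, 1 day after surgery, with oesophagus of unoperated rats by its DNA methylation. The comparison holds 9 of the 14 samples of the series: 5 labelled day 1 and 4 labelled NSC, for non-surgical control. All came from male rats of 8 to 9 weeks. The controls were full-thickness oesophagus, whereas the day 1 samples were punches of host tissue within 2 mm around the original defect, which had been closed with a bi-layer silk fibroin scaffold. The samples therefore differed in surgery, in graft and in how the tissue was taken, and effects of these cannot be told apart. The week 1 libraries were not used here, neither to choose cytosines nor in a test. Cytosines on chromosomes 1 to 20 were chosen where all 4 control libraries and at least 4 of the 5 day 1 libraries had 10 or more reads. That held for 117502 of the 10877662 cytosines listed in any of the 9 libraries. Of these, 74806 fell in 15424 tiles, windows of 1000 bp counted from position 1 that hold at least 3 chosen cytosines (median 4). The tiles are the units of the comparison.

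Vertebrate DNA is methylated mainly at cytosines that precede a guanine, called CpG. Most CpGs of a genome are methylated in most cells, whereas CpG-rich promoters are usually free of methylation, and the levels in between are often found at distal regulatory DNA and where cell types of a tissue differ. Reduced representation bisulfite sequencing reads this mark in fragments that MspI cuts at CCGG, so it samples CpG-rich DNA. A methylation level is here the percent of reads that kept the cytosine after bisulfite conversion. In whole tissue a changed level per cell and a changed mixture of cells cannot be told apart. Methylation does not measure expression, so the tissue label could not be checked against marker transcripts.

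Sequences of 4 promoters show where CpGs were read, because the gene-level results turn on them. They are RefSeq sequences of the assembly GRCr8, 300 bases each, from 250 bases before to 50 bases after the annotated start, in the direction of transcription. Each was placed on the build of the files, mRatBN7.2, by the spacing of its CpGs among the listed cytosines, as described under the processing. Capitals mark the CpGs that hold a chosen cytosine. Cttn encodes cortactin, a protein of branched actin networks, and its window is chr1:199635134-199635433 on the minus strand. Ctxn1 encodes the small membrane protein cortexin 1 (chr12:2612027-2612326, minus strand). The third, LOC134483901, is a RefSeq locus with no given name (chr20:18760309-18760608, plus strand). Klf5, a transcription factor of basal epithelium, is shown as a promoter that stayed near 0% (chr15:76064008-76064307, plus strand).
Cttn: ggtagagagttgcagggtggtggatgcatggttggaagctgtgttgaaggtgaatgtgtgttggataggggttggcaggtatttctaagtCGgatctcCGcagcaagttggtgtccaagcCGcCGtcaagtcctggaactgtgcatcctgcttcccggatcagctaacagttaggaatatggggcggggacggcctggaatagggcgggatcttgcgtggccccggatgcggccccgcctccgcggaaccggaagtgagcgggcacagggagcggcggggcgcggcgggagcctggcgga
Ctxn1: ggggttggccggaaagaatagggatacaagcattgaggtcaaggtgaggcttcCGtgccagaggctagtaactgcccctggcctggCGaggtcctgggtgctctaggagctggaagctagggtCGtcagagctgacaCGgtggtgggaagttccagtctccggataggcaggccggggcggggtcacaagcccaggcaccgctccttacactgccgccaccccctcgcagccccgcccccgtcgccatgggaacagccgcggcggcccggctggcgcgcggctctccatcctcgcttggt
LOC134483901: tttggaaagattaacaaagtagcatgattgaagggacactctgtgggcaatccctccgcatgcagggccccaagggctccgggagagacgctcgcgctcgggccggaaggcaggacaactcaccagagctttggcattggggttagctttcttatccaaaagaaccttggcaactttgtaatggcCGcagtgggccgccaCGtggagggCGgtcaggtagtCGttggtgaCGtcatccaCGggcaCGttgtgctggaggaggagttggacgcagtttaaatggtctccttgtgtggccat
Klf5: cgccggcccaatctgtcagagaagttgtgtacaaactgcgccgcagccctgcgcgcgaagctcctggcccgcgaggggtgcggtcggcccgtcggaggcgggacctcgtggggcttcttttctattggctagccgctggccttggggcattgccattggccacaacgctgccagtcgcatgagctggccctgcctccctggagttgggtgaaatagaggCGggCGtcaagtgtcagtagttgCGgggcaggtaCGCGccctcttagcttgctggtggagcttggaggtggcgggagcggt

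Depth differed between libraries. The reads summed over listed cytosines ran from 9676493 in day 1 replicate 2 to 49782600 in NSC replicate 1. Day 1 replicate 2 had 10 reads at only 9.75% of the chosen cytosines and no read at all in 9158 tiles, so those tiles rest on 4 day 1 libraries at most. The other 4 day 1 libraries had 10 reads at 99.4% or more of them. Tiles were called at 16.8% where day 1 replicate 2 had reads and at 14.5% where it had none. Nothing in the labels ties each library to an animal of its own, so a p-value here reflects only how these libraries vary, and some of that variation may be technical. No batch is given, and the sample codes run in order of group.

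Average methylation was higher at the wound margin. Over the 9951 cytosines with 10 reads in all 9 libraries, the mean level was 55.6%, 55.8%, 55.9% and 55.6% in NSC replicates 1 to 4. It was 59.4%, 58.5%, 58.8%, 59.3% and 58.5% in day 1 replicates 1 to 5. Each day 1 library lay above every control, and the spread within a group was small beside the gap. The group means were 55.7% ± 0.15 (SD, n = 4) and 58.9% ± 0.45 (SD, n = 5), a difference of 3.14 points (p = 0.0159 by an exact permutation test, two-sided, where 5 against 4 libraries cannot give a lower value, and 0.0238 after Benjamini-Hochberg adjustment over 3 library measures). With reads pooled over the cytosines in place of counting each cytosine once, the difference was 6.69 points. Pooling gives deeply read cytosines more weight. Leaving out the top 0.1% of coverage kept 6710 of the 9951 cytosines, and the difference, each counted once, was 3.06 points. Over all 117502 chosen cytosines, as the mean deviation from the controls, it was 4.61 points.

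Measures from mitochondrial reads moved with the groups in part. Methylation at 538 mitochondrial cytosines, which shows how much cytosine escaped conversion if that DNA carries none of the mark, was 0.313%, 0.303%, 0.527% and 0.512% in the controls. It was 3.14% and 3.30% in day 1 replicates 1 and 2, against 0.402%, 0.195% and 0.415% in replicates 3 to 5. Day 1 replicates 1 and 2 thus stood apart from the other 7 libraries (group difference 1.07 points, exact permutation p = 0.46). Without these 2 libraries the difference in mean CpG methylation was 3.11 points. At 365 promoter tiles under 10% in the controls with reads in all libraries, the mean level was 1.09% in day 1 replicate 1 and 0.692% in replicate 2, beside 0.713% to 0.799% in the controls and 0.958% to 1.144% in the other day 1 libraries. These tiles were chosen by the mean of the same controls, which can hold the control levels down. The mitochondrial share was taken as the reads at the 538 mitochondrial cytosines, out of the reads summed over all listed cytosines. It was 1.45%, 0.816%, 1.09% and 0.728% in the controls and 0.152%, 0.509%, 0.465%, 0.223% and 0.342% at day 1. No day 1 library reached the lowest control, and the difference was -0.682 points (exact permutation p = 0.0159, adjusted 0.0238). The part of this lower mitochondrial share in the methylation results was not tested.

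**Figure D1:**
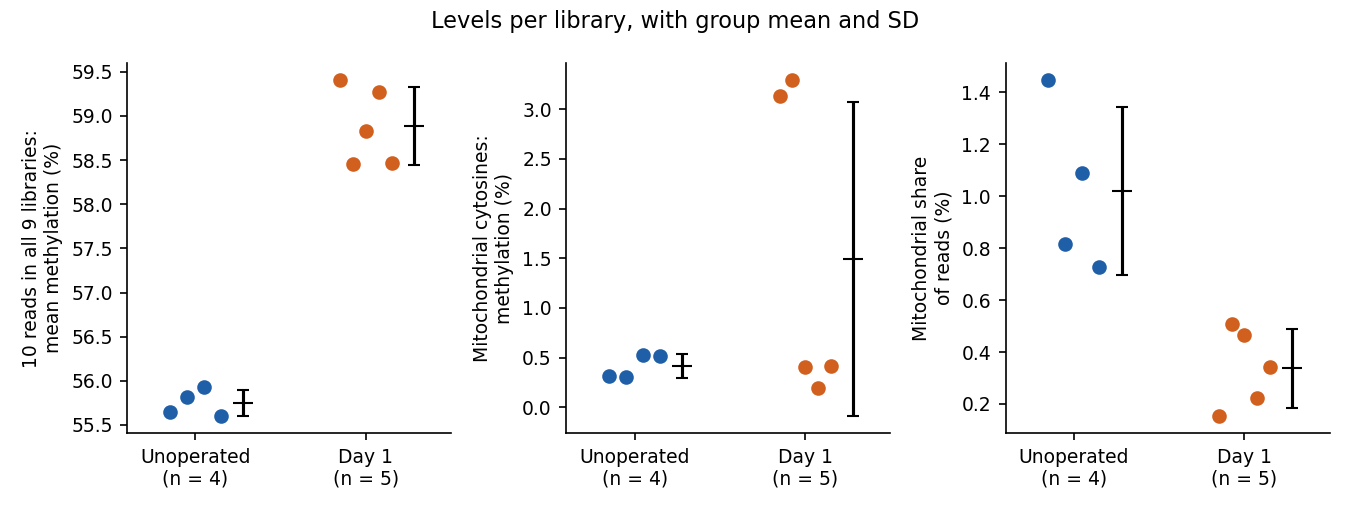
Each point is 1 library (blue unoperated, n = 4, orange day 1, n = 5), and the black mark and bar give the group mean and SD. The left panel shows the mean methylation in percent, where every day 1 library lies above 58%, the middle panel the mitochondrial methylation in percent, where 2 day 1 libraries lie above 3%, and the right panel the mitochondrial share of reads in percent; the axes do not start at 0.

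Of the 15424 tiles, 2382 (15.4%) were called, which means a Benjamini-Hochberg adjusted p below 0.05 by edgeR's quasi-likelihood test and a difference of group means of at least 10 points. Methylation rose at 1928 tiles (12.5%) and fell at 454 tiles (2.94%). Rises thus made up 80.9% of the calls. When each library's mean over the tiles where it had reads was subtracted first and limma was used, rises made up 64.2% of the calls (1246 against 695). This centring lowered the median difference of all tiles by 4.26 points, to -1.45 points. The mean of day 1 replicate 2 was taken over 6266 tiles only, so the amount taken off a tile depended on its reads there. The uncentred median difference over all tiles was 2.81 points, and directions given here are uncentred. The 2 groups did not overlap at 3457 tiles (22.4%), 2876 of them higher (18.6% of all tiles) and 581 lower (3.77%), and 2071 tiles (13.4%) were both called and free of overlap.

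Rises and falls had different shapes. Tiles that rose had a median level of 62.3% in the controls and 86.3% at day 1, with a median difference of 22.1 points, and 84.9% of them ended at 70% or more. Tiles that fell had medians of 72.1% and 27.6%, with a median difference of -31.7 points, and 53.7% of them ended under 30%. Falls were fewer but larger: 310 of 454 (68.3%) reached 25 points, against 771 of 1928 rises (40.0%), and 67 falls and 56 rises reached 50 points. The day 1 libraries also varied more among themselves at the falls, with a median SD of 9.25 points beside 5.73 in the controls. At the rises these median SDs were 5.69 and 6.25 points.

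**Figure D2:**
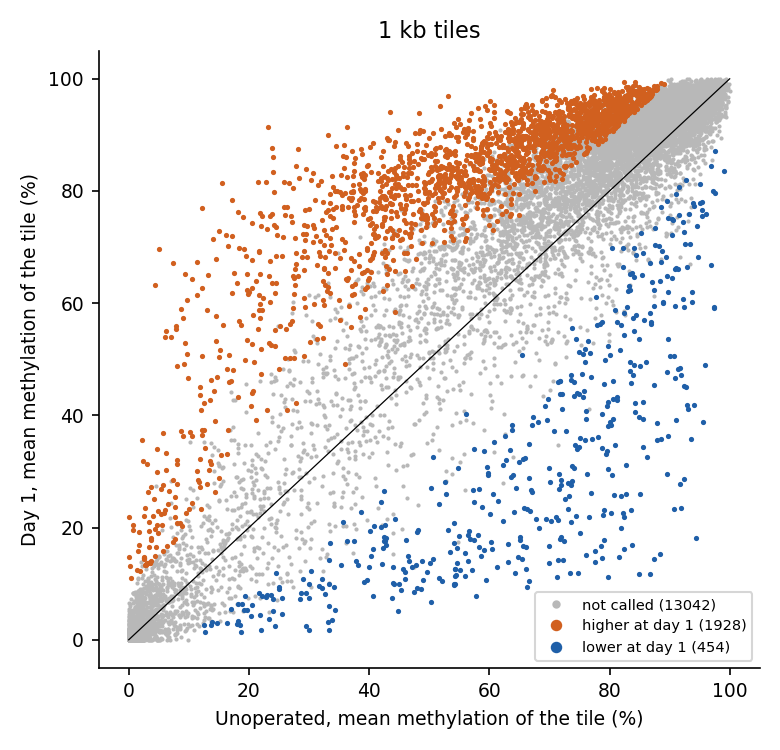
Each point is a 1 kb tile, with its mean methylation in percent in unoperated tissue on the horizontal axis and at day 1 on the vertical axis, and the line marks equal levels. The 1928 rises (orange) lie mostly at middle control levels and end high, whereas the 454 falls (blue) are spread below the line and 13042 tiles were not called (grey).

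The size of the difference varied with the level in unoperated tissue. To keep the starting level apart from the measured difference, tiles were sorted by the mean of 1 pair of control libraries and the difference was taken against the other pair. The median difference was 13.0 points in the 2867 tiles at 30% to 70%, and 13.2 points with the control pairs exchanged. It was 6.22 points at 10% to 30% and 5.89 points at 70% to 90%. At 90% and above it was 1.12 points, and in the 3101 tiles under 10% it was 0.0704 points. In the middle class the median was above 10 points in each of the 5 day 1 libraries, from 10.5 (replicate 5) to 15 (replicate 1). By the mean of all 4 controls, 41.0% of tiles at 30% to 70% were called, 2.91% of tiles under 10% and 1.66% at 90% and above; a level near either end also leaves less room for a change of 10 points.

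Placed promoters carried few of the changes. They held a median of 25 CpGs, beside 7 over all RefSeq promoter sequences, so CpG-poor promoters are hardly covered. Placed promoters overlapped 831 tiles, and 12 of them (1.44%) were called, beside 15.4% of all tiles. Of these 12, 11 rose and 1 fell. Only 432 of the 831 tiles had a chosen cytosine inside the 300 bases of a promoter, and 3 of these 432 (0.694%) were called. The others were read only at cytosines beside the promoter. In unoperated tissue 776 of the promoter tiles (93.4%) were under 10%, and 761 were under 10% in both groups. Among tiles under 10% in the controls, 6 of 776 with a placed promoter (0.773%) and 84 of the 2315 without one (3.63%) were called. Promoters with too few CpGs or reads could not be placed, so the second set can hold promoters too. By distance from a placed start, the share called was 2.19% of 1049 tiles within 1 kb, 14.5% of 145 tiles at 1 to 2 kb and 24.4% of 307 tiles at 2 to 5 kb. It was 17.9% at 5 to 20 kb, 18.8% at 20 to 100 kb and 14.8% beyond. Control levels changed with distance as well, from a median of 0.345% within 1 kb to 72.7% at 2 to 5 kb.

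**Figure D3:**
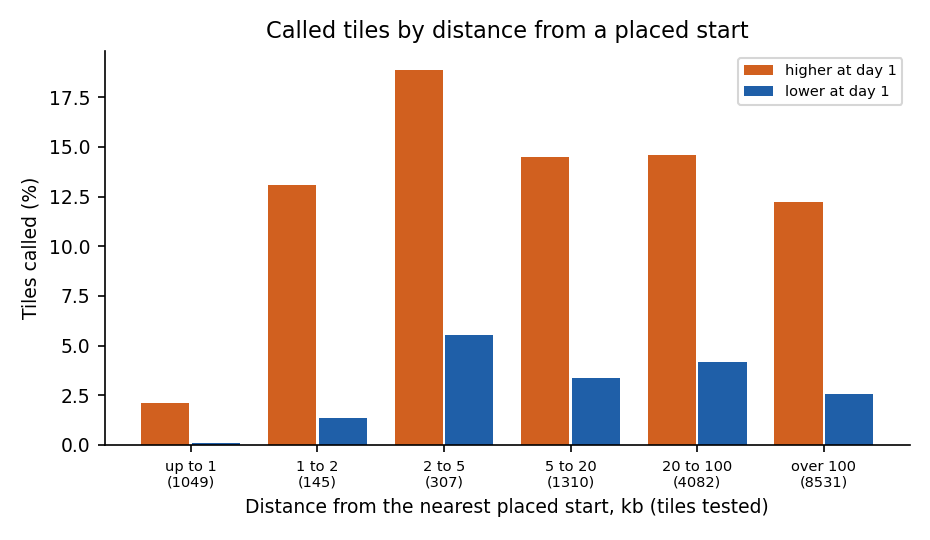
Bars give the percent of tiles called higher (orange) or lower (blue) at day 1 by distance from the nearest placed start in kb, with the number of tiles tested in brackets. The lowest share is within 1 kb (2.10% higher, 0.0953% lower) and the highest at 2 to 5 kb (18.9% higher, 5.54% lower).

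The Cttn start region showed the change in a pair of neighbouring tiles. The tile over the promoter (chr1:199635001-199636000) holds 4 chosen cytosines, the capitals of the sequence above, from 160 to 127 bases before the start. Its level was 5.26%, 6.98%, 0.543% and 6.35% in the controls. It was 49.4%, 19.2%, 54.3% and 13.5% in day 1 replicates 1, 3, 4 and 5, and replicate 2 had no read. The groups did not overlap, and the day 1 libraries spread over 40 points: the means were 4.78% ± 2.91 (SD, n = 4) and 34.1% ± 20.7 (SD, n = 4), with an adjusted p of 0.00573. With limma on percent the adjusted p was 0.0803, so the call rests on the count model. All 4 cytosines rose on average, from 1.32% to 17.6% at -160 and from 6.89% to 47.2% at -130.

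The adjacent tile downstream of the Cttn start (chr1:199634001-199635000) was steadier. It holds 8 chosen cytosines, from 396 to 589 bases after the start. Its levels were 5.68%, 1.06%, 0.873% and 1.84% in the controls and 33.5%, 42.1%, 32.1% and 19.9% in day 1 replicates 1, 3, 4 and 5. The means were 2.36% ± 2.25 (SD, n = 4) and 31.9% ± 9.14 (SD, n = 4), adjusted p = 0.000156 and log2 odds ratio 4.35 ± 0.58 (SE), and the tile was called again in all 19 alternatives that kept it. The rise was uneven along it: day 1 means were 13.9% to 17.2% at the 4 cytosines nearest the start and 36.3% to 56.8% at the 4 farthest from it.

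At Ctxn1 the rise was carried by 2 of the 4 cytosines. The 2 nearer the start, at -127 and -113, had means of 2.51% and 0% in the controls and 0.490% and 0.980% at day 1. At -197 and -164 the means went from 9.60% to 45.5% and from 1.97% to 28.9%. Over the tile (chr12:2612001-2613000) the levels were 4.17%, 6.82%, 1.47% and 1.24% in the controls and 18.5%, 6.59%, 27.3% and 25% in day 1 replicates 1, 3, 4 and 5. The groups overlapped, through replicate 3 alone, although the tile was called (adjusted p = 0.0103). By limma on percent the adjusted p was 0.0501.

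LOC134483901 rose from an already high level, 82.4% ± 4.45 (SD, n = 4), to 93.8% ± 2.98 (SD, n = 4), with an adjusted p of 0.0206. One of its 7 cytosines, at -10, was at 100% in every library with reads. After centring its difference was 6.54 points and it was not called.

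The other 9 called promoter tiles were read outside the 300 bases, at cytosines 202 to 849 bases from the start. The only fall was at LOC134481204 (chr12:38152001-38153000), from 86.2% ± 6.51 (SD, n = 4) to 32.6% ± 5.43 (SD, n = 4), adjusted p = 0.000711, and it was called again in all 18 alternatives that kept it. Zfr2, a zinc finger gene, rose from 51.8% to 82.7%. Polr2m, which encodes a subunit of RNA polymerase II, rose from 16.6% to 45.9%, and Pop5, a subunit of ribonuclease P, from 36.5% to 64.6%. Snapc3, of the complex that activates small nuclear RNA genes, rose from 9.09% to 36.3%. The 4 remaining rises were 12.8 points at Odf2, 12.9 at Pdzrn3, 17.8 at LOC108351187 and 18.1 at Gpn1. Not all of these calls were firm: Polr2m was called again in 8 of 18 alternatives, Odf2 in 10 of 19 and Zfr2 in 12 of 18. With cytosines of at least 5 reads admitted, the difference was 3.96 points at Snapc3, 6.71 at Polr2m and 7.16 at Odf2. These tiles were then not called.

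Klf5 illustrates the usual placed promoter. Its tile was at 1.38%, 0%, 0% and 0% in the controls and at 2.37% in day 1 replicate 1 and 0% in the other 4 (adjusted p = 0.593). The tile just after the start of Des, which encodes the muscle intermediate filament desmin, was at 2.10%, 1.73%, 0.428% and 2.39% in the controls and at 8.40%, 7.89%, 8.06%, 4.49% and 11.4% at day 1. Every day 1 library lay above every control (adjusted p = 0.0017), but the difference of 6.39 points was under the 10 point minimum and the tile was not called. After centring the difference was 2.78 points (adjusted p = 0.361). On average each of the 11 cytosines there, 52 to 135 bases after the start, was higher at day 1.

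**Figure D4:**
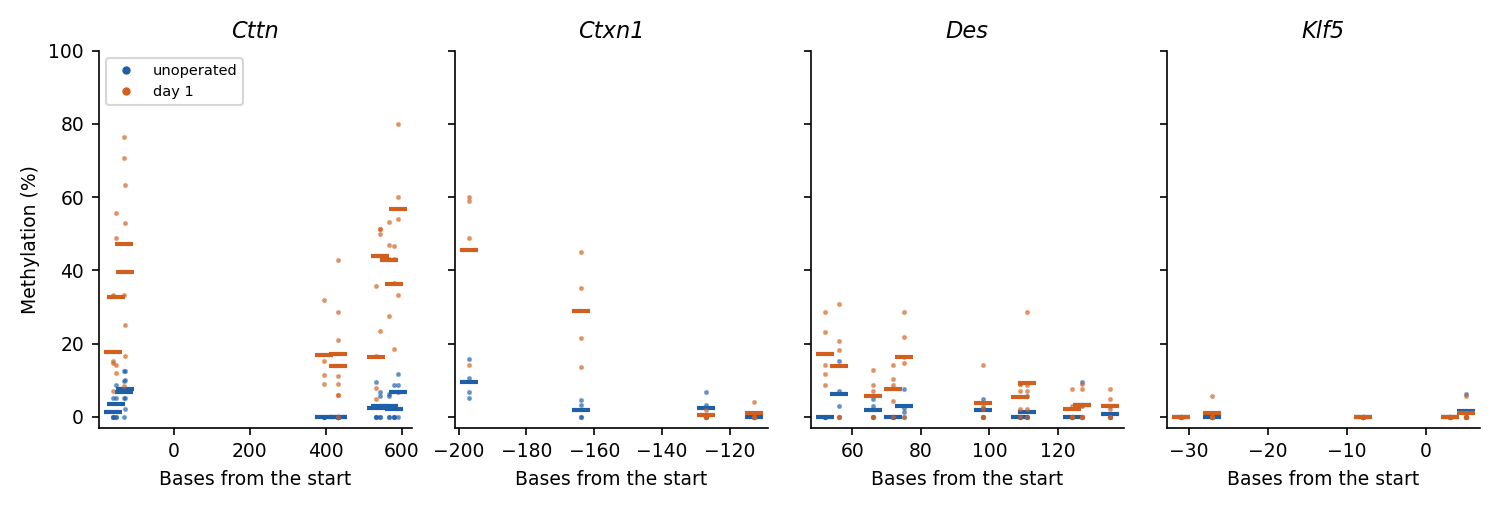
Methylation in percent of each chosen cytosine near 4 starts, against its distance in bases from the start (negative before it); small points are libraries and short bars group means (blue unoperated, orange day 1). At Cttn all 12 cytosines are higher on average at day 1, and at Ctxn1 the 2 farthest from the start carry the rise. At Des each cytosine is higher on average at day 1, up to a mean of 17.3%, and at Klf5 all group means lie under 2%.

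The 10 largest rises and the 10 largest falls were taken among the 325 tiles that were called, did not overlap between groups and had at least 30 summed reads in every library, so all 9 libraries stand behind each. The steepest fall was at chr2:185531001-185532000, 4 cytosines. It was at 80.7%, 76.6%, 82.4% and 74.5% in the controls and at 18.1%, 10.96%, 22.9%, 11.5% and 20.2% at day 1. The level thus dropped by 61.8 points in libraries that agreed closely within each group, from 78.6% ± 3.64 (SD, n = 4) to 16.7% ± 5.30 (SD, n = 5), adjusted p = 1.6e-06 and log2 odds ratio -4.23 ± 0.33 (SE). The largest rise, at chr2:22493001-22494000, was from 16.5% ± 12.0 (SD, n = 4) to 70.1% ± 19.7 (SD, n = 5), with an adjusted p of 0.00479. It rests on 3 cytosines, and a quasi-binomial regression gave an adjusted p of 0.0506. The next, at chr10:81286001-81287000, rests on 9 cytosines that all rose. It was at 19.9%, 17.2%, 9.38% and 6.58% in the controls and at 69.98%, 51.6%, 70.9%, 75.3% and 57.8% at day 1 (adjusted p = 3.26e-05).

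Of these 20 tiles, 3 lay within 10 kb of a placed start. A tile 5325 bases downstream of the start of Mafg, which encodes a small MAF transcription factor, fell from 82.3% ± 4.67 (SD, n = 4) to 22.6% ± 19.0 (SD, n = 5). Its day 1 levels were 10.7%, 0%, 48.7%, 20.7% and 33.2%, all under the lowest control of 77.4% (adjusted p = 0.000439). A tile 4187 bases downstream of Gjb2, the gap junction protein connexin 26, was at 94.2%, 95.8%, 93.2% and 87.5% in the controls and at 50.4%, 41.5%, 55.7%, 22.9% and 54.9% at day 1 (adjusted p = 4.62e-05). A tile 8082 bases downstream of Cdc27, a subunit of the anaphase-promoting complex, rose from 31.0% ± 8.15 (SD, n = 4) to 78.3% ± 7.25 (SD, n = 5), adjusted p = 8.75e-05. The other 17 had no placed start that near and are given by position only.

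**Figure D5:**
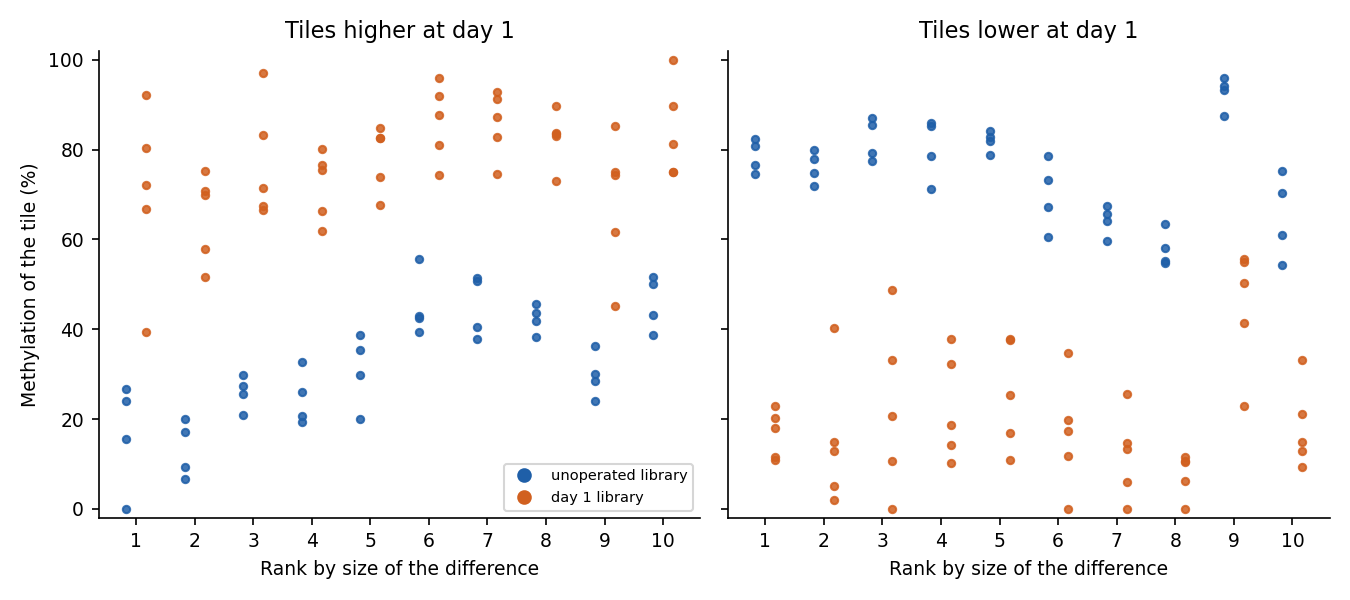
Methylation in percent of the 10 tiles with the largest rise (left) and the 10 with the largest fall (right), in order of the difference; each point is 1 library (blue unoperated, orange day 1). The groups are apart at every rank, and in the tile at rank 1 of the falls all day 1 libraries lie between 10.96% and 22.9%.

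Within 10 kb of a placed start lay 1973 tiles, of which 215 were called (10.9%, beside 15.4% of all tiles). Of them 190 were called without overlap between groups (9.63%, beside 13.4% of all tiles), 155 higher and 35 lower. The 10 largest rises and 10 largest falls among these 190, with no minimum of summed reads, were looked up after their values had been seen, and they include tiles already named. The nearest placed start need not be the nearest gene. Methylation rose most at a tile 7816 bases downstream of the start of Sh2b3, an adaptor that restrains cytokine receptor signalling in blood cells. It was at 28.6%, 35.7%, 5.56% and 26.1% in the controls and at 90.2%, 92.7%, 78.0% and 83.3% in day 1 replicates 1, 3, 4 and 5 (adjusted p = 0.000398). Adjacent tiles about 4 kb downstream of Ints5, a subunit of the Integrator complex, rose from 25.8% to 81.6% and from 24.2% to 73.9%. Their nearest chosen cytosines, at positions 205792995 and 205793002, lie on either side of the tile border. The 2 tiles can therefore share reads. A tile 6923 bases upstream of Pfkl, the liver-type phosphofructokinase of glycolysis, rose from 12.2% ± 2.67 (SD, n = 4) to 62.7% ± 6.54 (SD, n = 5), adjusted p = 7.02e-05. Upstream of Prdm1, a transcriptional repressor of B cell and epithelial differentiation, a tile at 6726 bases rose from 29.4% to 72.3% (adjusted p = 0.00724). The other rises among these 10 were Cdc27, named above, and tiles near Art5 (49.03 points), LOC134482895 (48.96 points), LOC134479709 (44.1 points) and Ankrd60 (43.4 points).

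Of the 10 falls, those at Mafg, Gjb2 and LOC134481204 are given above. A tile 3421 bases downstream of Tmem39b fell from 91.9% ± 5.93 (SD, n = 4) to 23.4% ± 19.6 (SD, n = 4). Its day 1 levels were 7.53%, 28.1%, 8.82% and 49.2%, under all controls. Xbp1, a transcription factor of the unfolded protein response, had a tile 5324 bases upstream at 81.6%, 85.1%, 89.7% and 72.9% in the controls and at 3.31%, 45.5%, 16.1% and 22.5% in day 1 replicates 1, 3, 4 and 5 (adjusted p = 0.000622). A tile 9372 bases upstream of Pak2, a kinase of actin signalling, fell from 78.9% to 22.3%. Methylation 5442 bases upstream of Irf2bp2, a transcriptional cofactor, fell from 76.6% to 21.9%, and 5722 bases upstream of Upk3a, a uroplakin of urothelium, from 73.6% to 21.1%. Tiles near Ppp2r3b and Susd1 fell by 50.8 and 50.1 points. All of these falls and the rises named with them were called again in every alternative that kept their tile, and none changed direction.

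Lists of 195 genes for muscle, epithelium, fibroblasts, endothelium, leukocytes, wound healing, developmental transcription factors and the methylation machinery gave little coverage. Only 28 of the genes had a placed start, and none did in the lists for endothelium, lymphocytes, or neutrophils and monocytes. Their start regions, 1000 bases before to 500 after a start, held 14 tiles. Of these 0 were called by edgeR, and 2 had an unadjusted p below 0.05. The share called was 15.4% of all tiles but only 2.19% of the 1049 tiles within 1 kb of a placed start. The count of 0 of 14 therefore shows no difference from other starts. Calls by limma and by quasi-binomial regression were 0 as well. Within 100 kb of one of these starts, with no other placed start nearer, lay 53 tiles, of which 3 rose and 2 fell. Tiles nearer to the start of another gene were not counted. The largest change was 60390 bases downstream of the start of Egfr, the receptor of epidermal growth factor. It was at 42.1%, 12.5%, 20.8% and 28.7% in the controls and at 74.2%, 80.0%, 90.5% and 57.9% in day 1 replicates 1, 3, 4 and 5 (adjusted p = 0.00287). A tile 5332 bases downstream of Hbegf, a ligand of that receptor, fell from 75.4% ± 4.52 (SD, n = 4) to 47.4% ± 8.73 (SD, n = 4), adjusted p = 0.0217, and was called again in 12 of 18 alternatives. The other 3 were overlapping between groups: a tile near Krt4, a keratin of suprabasal oesophageal epithelium, rose by 17.3 points, one near Mbd1, which encodes a methyl-CpG binding protein, rose by 12.2 points, and one near Smtn, the smooth muscle protein smoothelin, fell by 26.5 points. These calls were lost in many alternatives: Krt4 was called again in 7 of 19, Mbd1 in 8 of 19 and Smtn in 9 of 18. In the remaining lists with a placed start, no tile counted in this way was called. Basal epithelium had 2 such tiles, skeletal muscle 4, developmental transcription factors 8, and fibroblast and matrix 1.

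Libraries that took no part in the choice of tiles showed the same directions. Tiles were called without 1 day 1 and 1 control library, and the difference was then read between the 2 libraries left out, for all 20 such pairs. Among tiles called higher, 84.97% to 98.1% (median 94.0%) were higher again, and among tiles called lower, 88.9% to 98.98% (median 96.7%) were lower again. Over all tiles with reads in both libraries left out, 54.2% to 68.1% (median 61.9%) were higher in the day 1 library. The median difference in the libraries left out was 18.8 points at the rises and -37.8 points at the falls, beside 2.28 points over all tiles compared. The size differed with the day 1 library left out. It was 26.2 and 25.7 points at the rises with day 1 replicates 1 and 4 left out, and 18.7, 18.3 and 16.4 points with replicates 2, 3 and 5. At the falls it was -40.2 and -38.9 points for replicates 1 and 4, -38.4 for replicate 2, -30.8 for replicate 3 and -25.8 for replicate 5. The median was thus smallest for day 1 replicate 5 in both directions, but the libraries were not compared on the same tiles. The median number of rises compared in this way ran from 672 for replicate 2 to 1461 for replicate 5. A tile can be compared only where the library left out has reads, and replicate 2 had none in 9158 tiles. With replicate 2 alone left out, 2005 tiles were called higher. In the fits, the median difference at these rises was 20.9 points without replicate 2 and 25.7 to 27.9 points without each of the others. The 20.9 points cover only tiles where replicate 2 had reads. The 20 pairs share libraries and are not independent.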

How the data were processed

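Methylation was measured by reduced representation bisulfite sequencing: MspI digestion, removal of fragments above 300 bp and bisulfite conversion, per the labels' protocols. The tools named in the submitters' processing notes are methylKit 1.14.2, Bismark 0.23.0, FastQC and Trim Galore, with the build mRatBN7.2; their roles are not given in the sources used here. The deposited files give each cytosine's count of methylated reads and count of all reads, and the deposited percent is their ratio, truncated; only cytosines with at least 5 reads are listed, which was checked. Percent was recomputed from the counts. A read over several cytosines counts at each.

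Groups were taken from the time label, and replicates were numbered in accession order. Tile sums of counts went into edgeR 4.0.16 under R 4.3.3 (library effects plus a day 1 effect, common dispersion, quasi-likelihood F test, adjusted over all 15424 tiles), and the script was tested on simulated data. The SE of a log2 odds ratio is its size divided by the square root of F, an approximation. Library means were compared by exact permutation tests in scipy 1.17.1. Alternatives covered read minimum, depth, tiles, test (limma 3.58.1, quasi-binomial), difference and libraries. Named tiles are the 10 largest rises and falls among called tiles that do not overlap and have at least 30 reads in every library.

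No genome of mRatBN7.2 was used, and gene names had been planned only for that case. After the data were seen, RefSeq promoters (GRCr8, 33469 sequences) were instead placed by matching the spacing of their CpGs to listed cytosines on chromosomes 1 to 20: at least 10 CpGs matched, no listed cytosine off a CpG, and a lead of 3 over the next place. A lower minimum was tried and put a smaller share on the right chromosome. Of 5372 placed, 5347 (99.5%) fell on the chromosome RefSeq gives; 25 on another and 2 on the other strand were dropped, leaving 5345. Bases other than CpGs were not compared, so printed letters may differ from mRatBN7.2. Members, lists and named genes were chosen with earlier results of these data known.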

Additional observations from a re-analysis of the deposited data

How the results depend on the processing

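No called tile was called the opposite way in any alternative on 1000 bp tiles; with tiles of other sizes, which do not match the main tiles one to one, only counts were compared. Counts moved with the cytosines admitted. With 5 reads, 6071 tiles were called (4843 higher, 1228 lower); with 20 reads 784 (658 and 126), 3 of them promoter tiles; with 10 reads in all 9 libraries 182 (45 of them lower), with 0 of 68 promoter tiles called by edgeR (10 at an unadjusted p below 0.05); with at least 5 cytosines 831 (679 and 152), 4 of them promoter tiles. Fewer tiles were tested in the last 3 and more in the first. Drawing 10 reads per cytosine gave 1549 calls, 1204 higher. Centring gave 1246 higher and 695 lower. A minimum of 25 points gave 1081 calls, 771 higher and 6 at promoters, and no minimum gave 45 at promoters. Other settings not leaving out a library kept the counts within 1.5 times.

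Leaving out each library in turn gave 1638 to 2457 calls, 1280 to 2005 higher and 358 to 452 lower, and 7 to 13 promoter tiles. The lowest were without day 1 replicate 1 (1280 higher, 7 promoter tiles) and without NSC replicate 4 (7 promoter tiles). Mean methylation differed by 3.01 to 3.25 points. Without day 1 replicates 1 and 2 together, an alternative chosen after seeing the data, 1726 tiles were called. The mean then differed by 3.11 points and the mitochondrial share by -0.677 points, both at p = 0.0571 by exact permutation, the lowest that 3 against 4 can give, and mitochondrial methylation turned to -0.0761 points. Of the 388 values for the 20 tiles of largest change, 387 kept the call. For 35 further named tiles 562 values matched the call and 82 lost it, in 14 tiles; apart from the values given with them the cause was not tested.

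No paired analysis was possible because the labels carry no replicate numbers; the numbers used here only name libraries in accession order. Depth limits day 1 replicate 2 most, with a median of 23 reads per tile that has any, against 83 to 157 in the other libraries; intervals were not computed for single libraries.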

Other observations

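Calls were spread over all 20 chromosomes tested, from 12.7% of tiles on chromosome 18 to 21.7% of 608 tiles on chromosome 20, and rises outnumbered falls on each. The share called was 15.4% of tiles with 3 chosen cytosines, 7.18% of 696 tiles with 11 to 20 and 1.27% of 79 with more. The median control levels of these classes were 80.2%, 0.948% and 1.66%.

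Adjacent tiles carried the same call at Cttn and at Ints5. Of 175 tiles called higher that had an adjacent tested tile, 48 (27.4%) had an adjacent tile called higher, beside 10.6% of all 1687 tiles with an adjacent tested tile. Of 37 tiles called lower, 6 (16.2%) had an adjacent tile called lower, beside 2.31%. An adjacent call in the other direction was found for 1 of the 175 and 1 of the 37. Neighbours can share reads at their border.

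A further 481 tiles had an adjusted p below 0.05 with a difference under 10 points, 415 of them higher at day 1, and 2013 tiles differed by at least 10 points without passing the test.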
